A study of Mus musculus with 24 samples.

Results

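Wild-type (WT) mouse embryonic stem cells were compared before and after 4 days of a multilineage differentiation that used retinoic acid. The comparison took in 6 of the 24 bulk RNA-seq libraries of the series, namely the 3 WT libraries of day 0 and the 3 WT libraries of day 4, and it was set by genotype and day alone. In the deposited table, an A follows WT in the names of the day 0 columns. Its meaning is not given in the labels, and these columns were matched to the WT samples because they are the only WT columns of that day. At day 0 the cells were on gelatin with 15% fetal bovine serum and leukemia inhibitory factor (LIF), the cytokine that holds mouse stem cells in self-renewal. At day 4 they were in 10% serum with 1 µM retinoic acid and are labelled as differentiated cells. The WT cells had no 4-hydroxytamoxifen (4-OHT), the drug that switches on the Cre recombinase in the mutant lines. The other 18 libraries came from Mll1-KO, Mll2-KO and double-KO cells on the same 2 days. The Mll1-KO was made by CRISPR in a line with a Cre-inducible Mll2 deletion, and the Mll2-KO and double-KO cells had 800 nM 4-OHT for 48 h. The labels do not say whether the WT cells carried the undeleted conditional Mll2 allele. Retinoic acid, the loss of LIF, the lower serum and the 4 days in culture changed together and no vehicle-treated day 4 group was analysed, so they cannot be told apart here. Nothing in the labels says that the 3 libraries of a group came from separate cultures. The p-values below therefore measure the spread between libraries within groups, which may be technical. That spread was estimated over all 24 libraries, those of the mutants included.

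Retinoic acid is made from vitamin A by retinol and retinaldehyde dehydrogenases, is carried in the cell by binding proteins and is broken down by cytochromes of the Cyp26 family. Inside the nucleus it binds retinoic acid receptors, which pair with retinoid X receptors on DNA at repeats of a short sequence and switch from repression to activation when the ligand is bound. In stem cells it drives exit from self-renewal, and in the embryo it gives cells a posterior position by switching on Hox genes from one end of each cluster to the other. With serum and without a neural medium, retinoic acid is also a classical inducer of extraembryonic endoderm.

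The promoters of the retinoic acid-degrading enzyme gene Cyp26a1 and of the receptor gene Rarb are shown because both genes are textbook direct targets of the receptors and both are among the 15 largest rises. Each line gives the 250 bases before the RefSeq gene start, read 5′ to 3′ on the gene's strand in build GRCm38.p6. The capitals mark 2 receptor hexamers in direct repeat with a spacing of 5 bases, the DR5 arrangement. Cyp26a1 lies on the plus strand at chr19:37697558-37697807 and Rarb on the minus strand at chr14:16575477-16575726. The Rarb window lies inside the annotated locus of the gene (16430839 to 16819156) and not at its 5′ end. The count of the gene is not split by start.
Cyp26a1: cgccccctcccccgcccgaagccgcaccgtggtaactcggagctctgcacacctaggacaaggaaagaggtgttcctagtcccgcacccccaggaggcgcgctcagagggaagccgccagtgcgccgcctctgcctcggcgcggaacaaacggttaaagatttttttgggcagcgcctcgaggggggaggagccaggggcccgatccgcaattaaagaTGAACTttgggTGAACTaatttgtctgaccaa
Rarb: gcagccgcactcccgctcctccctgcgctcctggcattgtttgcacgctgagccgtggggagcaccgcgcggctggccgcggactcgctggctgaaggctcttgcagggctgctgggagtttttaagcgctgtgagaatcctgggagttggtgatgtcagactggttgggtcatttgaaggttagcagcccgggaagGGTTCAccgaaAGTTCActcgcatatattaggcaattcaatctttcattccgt
Both strands were searched for pairs of the consensus hexamer AGGTCA. The variant AGTTCA, which both promoters hold, was allowed too. So was GGTTCA, which stands first in the Rarb repeat. The last variant allowed was GGGTCA, which neither of these promoters holds in its repeat. The Cyp26a1 match is on the opposite strand, where it reads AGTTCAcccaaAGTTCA, and its first base on the gene's strand is at -32 from the start. The Rarb match is on the gene's own strand at -53. Of 32851 RefSeq promoter windows of 300 bases (250 before to 50 after the start), 32 held a DR5 match, which is 0.0974%. Among the 11873 tested genes with a promoter in the table, 6 held one. Cyp26a1 and Rarb were 2 of these because the variants in their repeats were allowed, so their place among the matches is no result. The platelet chemokine gene Ppbp, also among the 6, rose as well (from 0.51 to 70.7 normalized counts). The other 3, which complete the 6, were added after their values were seen, like Ppbp. The biliverdin reductase gene Blvrb went from 457 to 398 (adjusted p = 0.062). Syndig1 and Cfap45 fell, with log2 changes of -0.79 and -1.74 (the call of Syndig1 is lost without day 4 replicate 3). A match says only that these letters stand in the window.

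The 6 WT libraries held 21831268 to 22544651 reads at day 0 and 13410539 to 15619260 at day 4, over 19953 genes. Values are the authors' normalized counts, which are read counts divided by 1 size factor per library. A gene was tested with limma on log2(normalized count + 1) if it had at least 10 normalized counts in at least 3 of the 24 libraries, and a gene counted as called when its p, adjusted after Benjamini and Hochberg, was below 0.05. Folds of genes with low counts are understated on this scale. Of 15114 genes tested, 12522 were called (82.9%), with 6499 higher at day 4 (43.0%) and 6023 lower (39.9%). The 3 and 3 libraries did not overlap for 12917 genes (85.5%), so a call or a gap between the days is the rule in this comparison and the size of a change says more than its call. Called rises of at least 2-fold numbered 3669 genes (24.3%) and called falls of at least 2-fold numbered 2846 (18.8%). At 4-fold or more, 1834 genes rose (12.1%) and 1106 fell (7.32%). The median log2 change over all tested genes was 0.044, and every list median below stands beside that value. Rescaling the libraries to equal totals moved this median by 0.12 and quantile scaling moved it by -0.15, so changes of that size depend on the scaling. In bulk RNA, fewer cells of a type and less RNA per cell cannot be told apart, and this holds for every fall and rise below. A gene that is silent at one stage could pass the filter only through the other, so the counts over lists describe the lists and are not evidence for them.

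**Figure D1:**
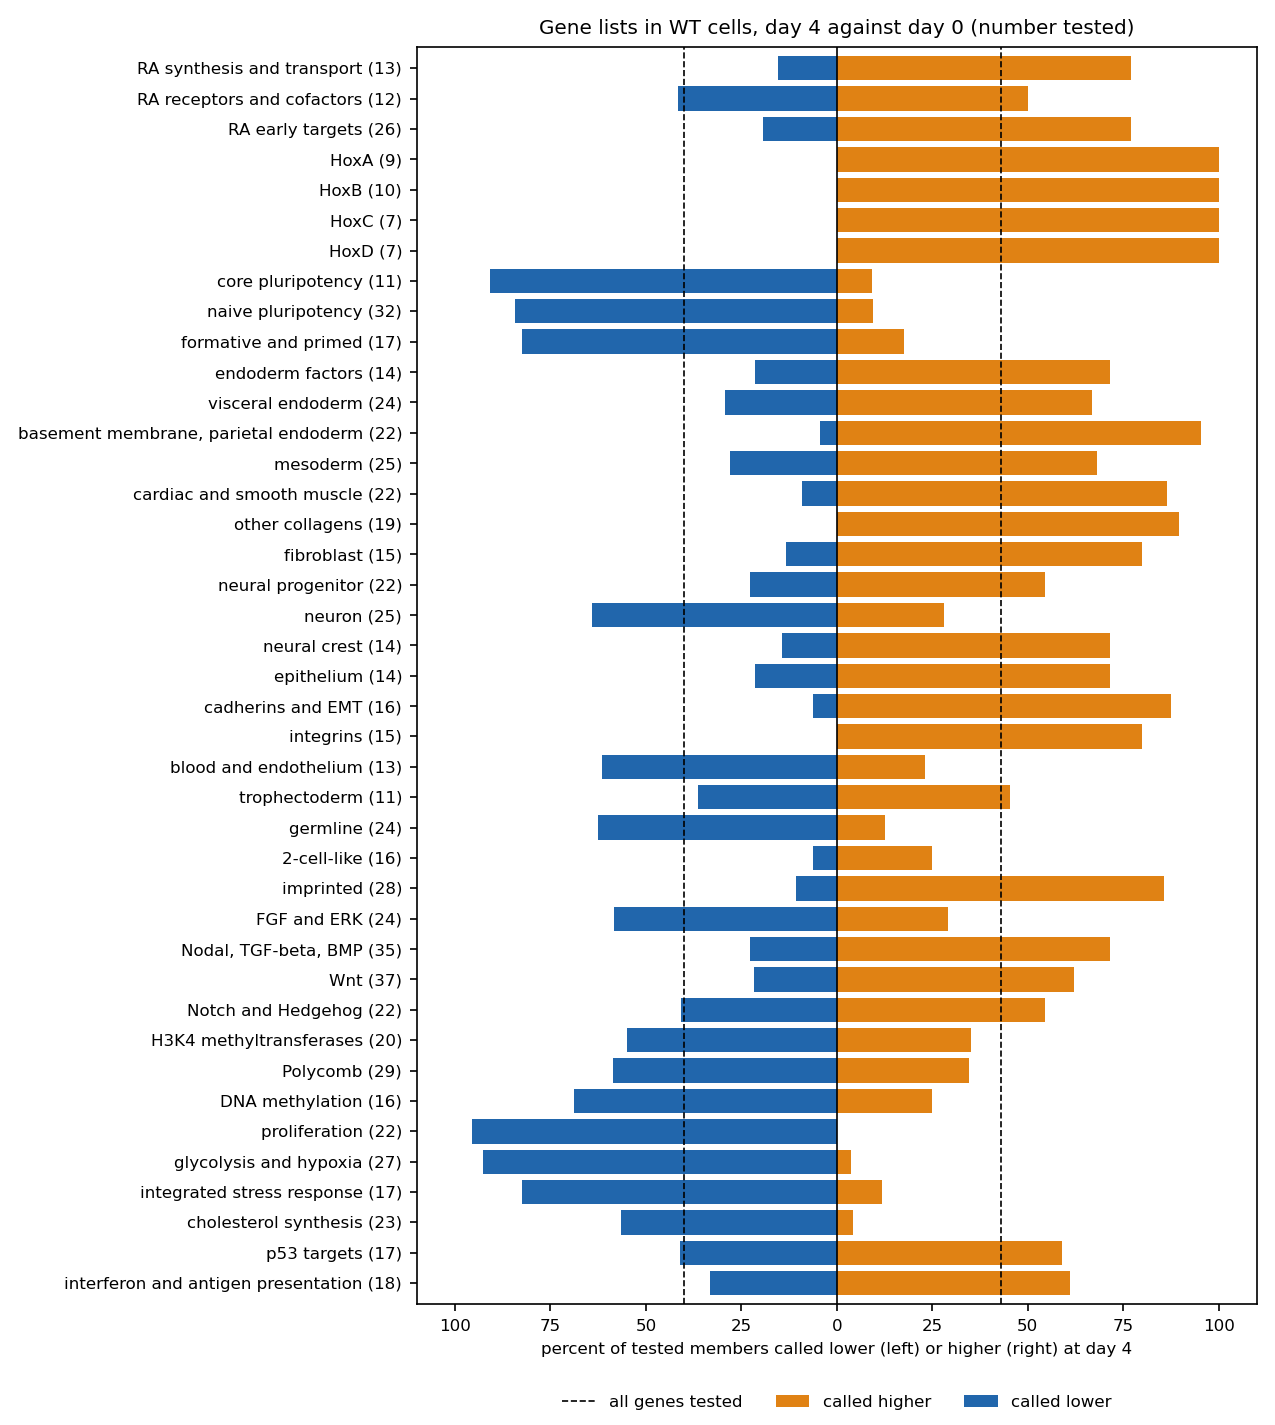
Percent of the tested genes of each list that were called higher (right, orange) or lower (left, blue) at day 4 against day 0 in WT cells (limma, adjusted p below 0.05). The number tested is given beside each list, the dashed lines mark the values over all 15114 tested genes (43.0% higher, 39.9% lower), and the 4 Hox cluster lists have every tested member on the right while the proliferation genes have none there.

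Both tested enzymes of the family that degrades retinoic acid rose from a low level. Cyp26a1 (chromosome 19, 37697798 to 37701536, plus strand in mm10) had normalized counts of 25.3, 18.2 and 21.7 at day 0 and 9619, 10066 and 10232 at day 4. The day 4 libraries were close together and far above those of day 0, with a log2 change of 8.79 ± 0.17 (SE) with an adjusted p of 5.6e-26. Cyp26b1, a second enzyme of the family, had 5.36, 12.2 and 6.99 at day 0 and 2245, 2201 and 2461 at day 4, with a log2 change of 8.04 ± 0.48 (SE) with an adjusted p of 6e-15. Cyp26c1, the third member, was too low for the test (3.09 and 0.39).

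Among the receptors, one isotype gene rose steeply, one fell and one did not pass the test. Rarb had 6.13, 5.32 and 4.66 at day 0 and 2673, 2550.2 and 2628 at day 4, with a log2 change of 8.69 ± 0.46 (SE) with an adjusted p of 6.3e-16. The gene overlaps Top2b in the annotation, and the sources used here do not say whether the counting used strand, so reads in the shared stretch cannot be told apart. Rarg had 4633, 4565 and 3933 at day 0 and 868, 845 and 880.1 at day 4, with a log2 change of -2.34 ± 0.08 (SE) with an adjusted p of 2.6e-20. Rara had 1064, 1127 and 1058 at day 0 and 1103, 1121 and 1164 at day 4, and its days overlapped (adjusted p = 0.29). Of the partner receptors, Rxra rose from 549 ± 6.04 to 1018 ± 24.9, Rxrb fell slightly from 1098 ± 14.4 to 900.5 ± 47.9, and Rxrg fell from 18.9 ± 2.60 to 4.61 ± 1.55 (SD, n = 3 per day here and below). Nrip1, a corepressor that ligand-bound receptors recruit and that is itself a known retinoic acid target, rose from 333 ± 18.5 to 1763 ± 75.8. The coactivator Ncoa2 rose with a log2 change of 0.94 and its relative Ncoa3 fell with -0.82. Over the receptor and cofactor list, of 12 tested, 6 were higher and 5 lower at day 4, with a median log2 change of 0.10.

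Most genes that make and carry retinoic acid were also higher at day 4. In that list, of 13 tested, 10 were higher and 2 lower at day 4, with a median log2 change of 3.49. Dhrs3, which turns retinaldehyde back to retinol, had 29.9, 29.6 and 37.3 at day 0 and 2173, 2102 and 2201 at day 4, with a log2 change of 6.03 ± 0.18 (SE) with an adjusted p of 1.6e-21. Rdh10, the retinol dehydrogenase that opens the synthesis, had 42.1, 46.3 and 33.4 at day 0 and 1045, 997 and 996 at day 4. All 3 day 4 libraries of both genes were far above all 3 of day 0. Of the retinaldehyde dehydrogenases, Aldh1a2, the main embryonic form, rose from 50.9 ± 8.35 to 414 ± 48.7 and Aldh1a1 rose from 2.82 ± 1.18 to 186 ± 8.32. Rbp4, the serum carrier of retinol, rose from 25.1 ± 7.44 to 2120.0 ± 236 and its receptor Stra6 rose from 34.8 ± 11.6 to 651 ± 47.5. The retinoic acid shuttle Crabp2 rose with a log2 change of 3.33 ± 0.12 (SE). Its relative Crabp1 had 194, 194 and 222 at day 0 and 213, 219 and 229 at day 4, with days that overlapped (adjusted p = 0.5). Adh5, a gene of the alcohol dehydrogenase family, fell with -0.81 ± 0.04. The lowest log2 change in the list was -2.13, of another member.

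**Figure D2:**
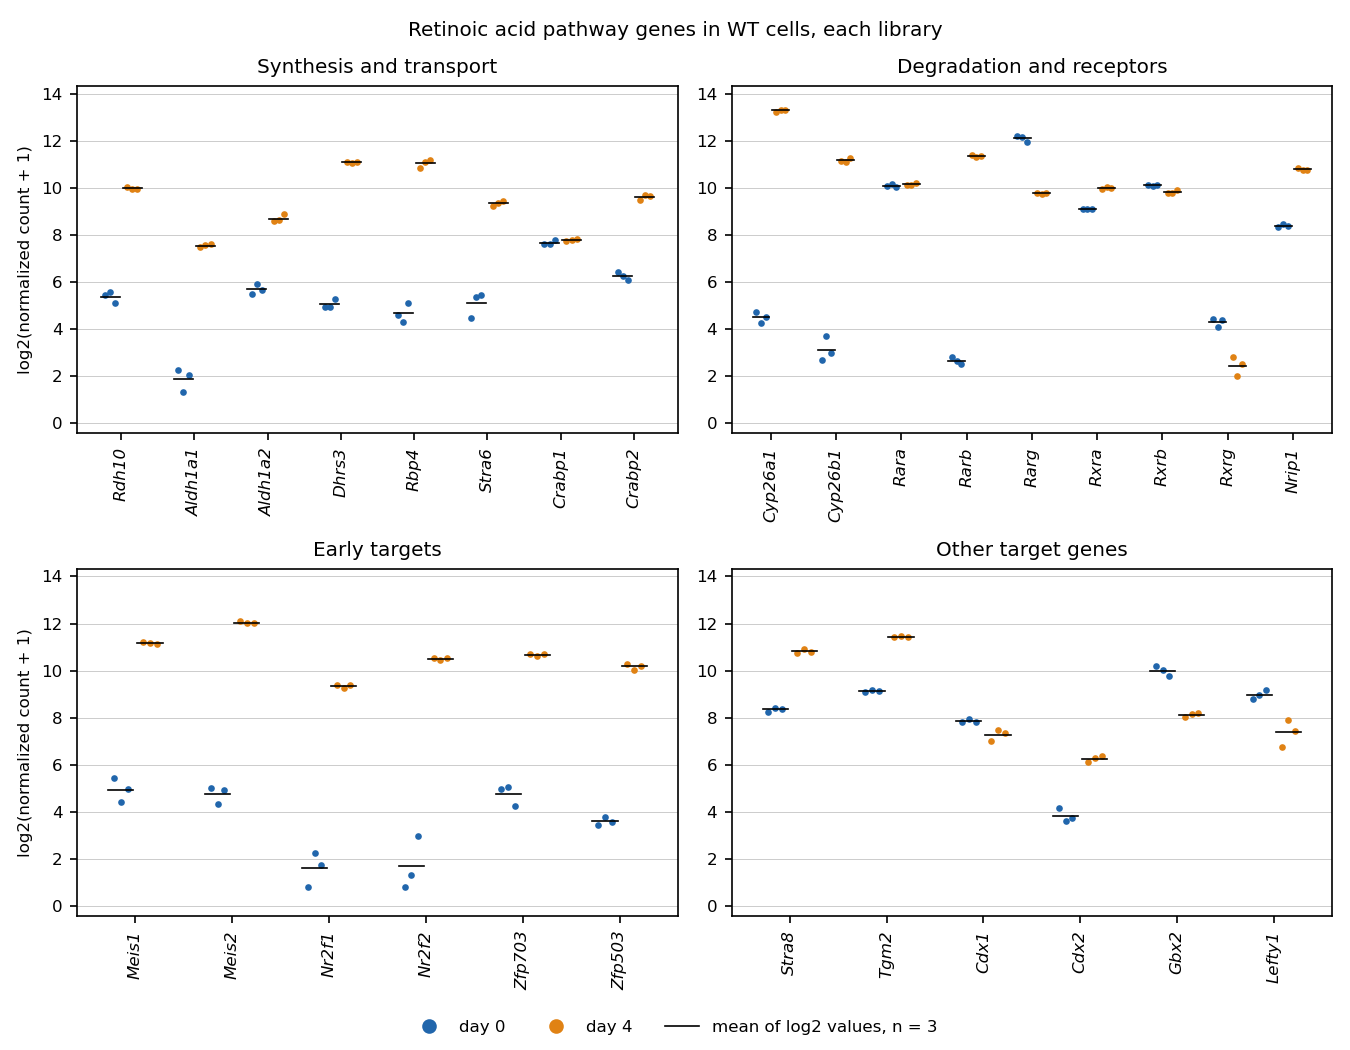
Normalized counts (log2 of the count plus 1, vertical axis) in each WT library for genes that make, carry, degrade or receive retinoic acid and for early target genes. Each point is 1 library (blue day 0, orange day 4) and bars mark group means. The points of Cyp26a1, Cyp26b1 and Rarb are furthest apart among the first 2 panels, Rarg goes down, and the points of Rara and Crabp1 overlap.

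Most genes of the list of early retinoic acid targets, many of them transcription factors, were higher: of 26 tested, 20 were higher and 5 lower at day 4, with a median log2 change of 1.88. Meis1 and Meis2 encode homeodomain partners of Hox proteins. Meis2 had 31.4, 19.0 and 29.5 at day 0 and 4364, 4208 and 4105 at day 4, with a log2 change of 7.29 ± 0.16 (SE) with an adjusted p of 1.7e-24. Meis1 rose from 31.0 ± 10.8 to 2323 ± 84.4. The orphan receptor genes Nr2f1 and Nr2f2 (COUP-TFI and COUP-TFII) rose from 2.30 ± 1.52 to 650.4 ± 36.5 and from 3.09 ± 3.40 to 1455 ± 63.9. Zfp703 and Zfp503, a pair of related zinc finger repressors, rose from 27.0 ± 8.02 to 1629.5 ± 40.6 and from 11.2 ± 1.51 to 1162 ± 101. Stra8, the gene by which retinoic acid starts meiosis in germ cells, rose from 327 ± 19.7 to 1805 ± 119 although it was already present at day 0. The transglutaminase gene Tgm2 rose with a log2 change of 2.31 ± 0.10. Cdx2 rose from 13.6 ± 2.90 to 75.5 ± 6.76 but its relative Cdx1 fell from 234 ± 12.6 to 156 ± 25.9 (adjusted p = 0.0064), a call that is lost when day 4 replicate 1 is left out. The hindbrain-boundary gene Gbx2 fell from 1023 ± 138 to 279 ± 16.7.

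The Hox genes rose together. Of 38 Hox genes described here, 33 were tested, all 33 were called higher, and the libraries of the 2 days did not overlap for 32 of them. Over all genes the corresponding shares were 43.0% and 85.5%. The 5 genes below the filter were Hoxa11, Hoxc11, Hoxc12, Hoxd10 and Hoxd12. The median log2 change was 5.36 over 9 HoxA genes, 7.68 over 10 HoxB genes, 6.78 over 7 HoxC genes and 3.33 over 7 HoxD genes. With genes at 0 reads set to their lower bound, the HoxB median was 7.46 and the other three were the same.

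In the HoxA cluster on chromosome 6, Hoxa5 had 4.59, 3.04 and 4.66 at day 0 and 1964, 1854 and 1836 at day 4, with a log2 change of 8.55 ± 0.36 (SE) with an adjusted p of 2.4e-18, and stood among the 15 largest rises of all genes. Hoxa3 rose from 2.82 ± 1.63 to 577 ± 25.9, Hoxa4 from 6.13 ± 1.27 to 219 ± 20.2 and Hoxa7 from 8.95 ± 4.85 to 142 ± 10.3. Hoxa2 had 0 to 1 read per library at day 0 and a mean of 99.4 at day 4, a ratio of 389-fold (95% counting interval 69.4 to 15442). Towards the 5′ end, Hoxa9 reached 121, Hoxa10 rose from 12.8 ± 5.91 to 90.7 ± 19.9 and Hoxa13 rose from 1.79 ± 1.61 to 35.6 ± 3.98. Several neighbours in this cluster overlap each other or an antisense RNA in the annotation (Hoxa3 to Hoxa6 here, Hoxc5 with Hoxc6 to Hoxc10, Hoxd3 with Hoxd4), and their reads cannot be told apart where counting ignored strand or shared exons.

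In the HoxB cluster on chromosome 11, Hoxb1, the gene at the 3′ end that patterns the hindbrain, had 0, 0 and 2.33 at day 0 and 315, 401 and 386 at day 4, which is 473-fold (95% counting interval 163 to 2322). Hoxb2 had 6.89, 3.04 and 3.11 at day 0 and 1052, 1042 and 957 at day 4, with a log2 change of 7.65 ± 0.47 (SE) with an adjusted p of 1.8e-14. Hoxb3 was higher at day 4 by 991-fold (95% counting interval 341 to 4843). Hoxb4 rose from 13.5 ± 4.25 to 486 ± 18.3. Hoxb5 had no read in any day 0 library and a mean of 356 at day 4, at least 155-fold higher against a floor of 3 reads per library. Hoxb6 and Hoxb8 were higher by 567-fold (95% counting interval 154 to 4617) and 1664-fold (95% counting interval 301 to 66517), Hoxb7 rose from 2.03 ± 3.51 to 75.2 ± 11.5 and Hoxb9 rose from 14.6 ± 6.81 to 785 ± 86.1. Hoxb13, at the 5′ end and away from the rest of the cluster, was already above 0 at day 0 and had 20.7, 27.3 and 33.4 at day 0 and 482, 548 and 488 at day 4. The rise therefore took in both ends of this cluster, with means of 367 for Hoxb1 and 506 for Hoxb13 at day 4.

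In the HoxC cluster on chromosome 15, Hoxc8 had no read in any day 0 library and 729 ± 69.1 at day 4, at least 316-fold higher. Hoxc4 rose from 10.2 ± 5.19 to 349 ± 22.2 and Hoxc9 rose from 2.57 ± 2.34 to 462 ± 46.9. Hoxc10 reached 112. Hoxc13, at the 5′ end, rose only from 60.6 ± 2.12 to 126 ± 15.6, with a log2 change of 1.04 ± 0.21 (SE) with an adjusted p of 6.6e-05. In the HoxD cluster on chromosome 2, Hoxd4 rose from 7.69 ± 3.14 to 118 ± 5.64, Hoxd8 from 20.5 ± 7.93 to 205 ± 9.87, Hoxd9 from 9.99 ± 2.15 to 135 ± 20.0 and Hoxd1 from 23.1 ± 7.11 to 108 ± 7.80. Hoxd11 was the tested Hox gene whose days overlapped, with 0, 0.76 and 10.1 at day 0 and 15.2, 12.0 and 5.89 at day 4 and a log2 change of 2.07 ± 0.65 (SE) with an adjusted p of 0.0049, a call that is lost without day 0 replicate 1. Hoxd13 at the 5′ end had 46.7, 35.7 and 56.7 at day 0 and 75.2, 89.2 and 86.0 at day 4, with a log2 change of 0.86 ± 0.30 (SE) with an adjusted p of 0.0099, and lost its call under quantile scaling and without day 0 replicate 2.

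**Figure D3:**
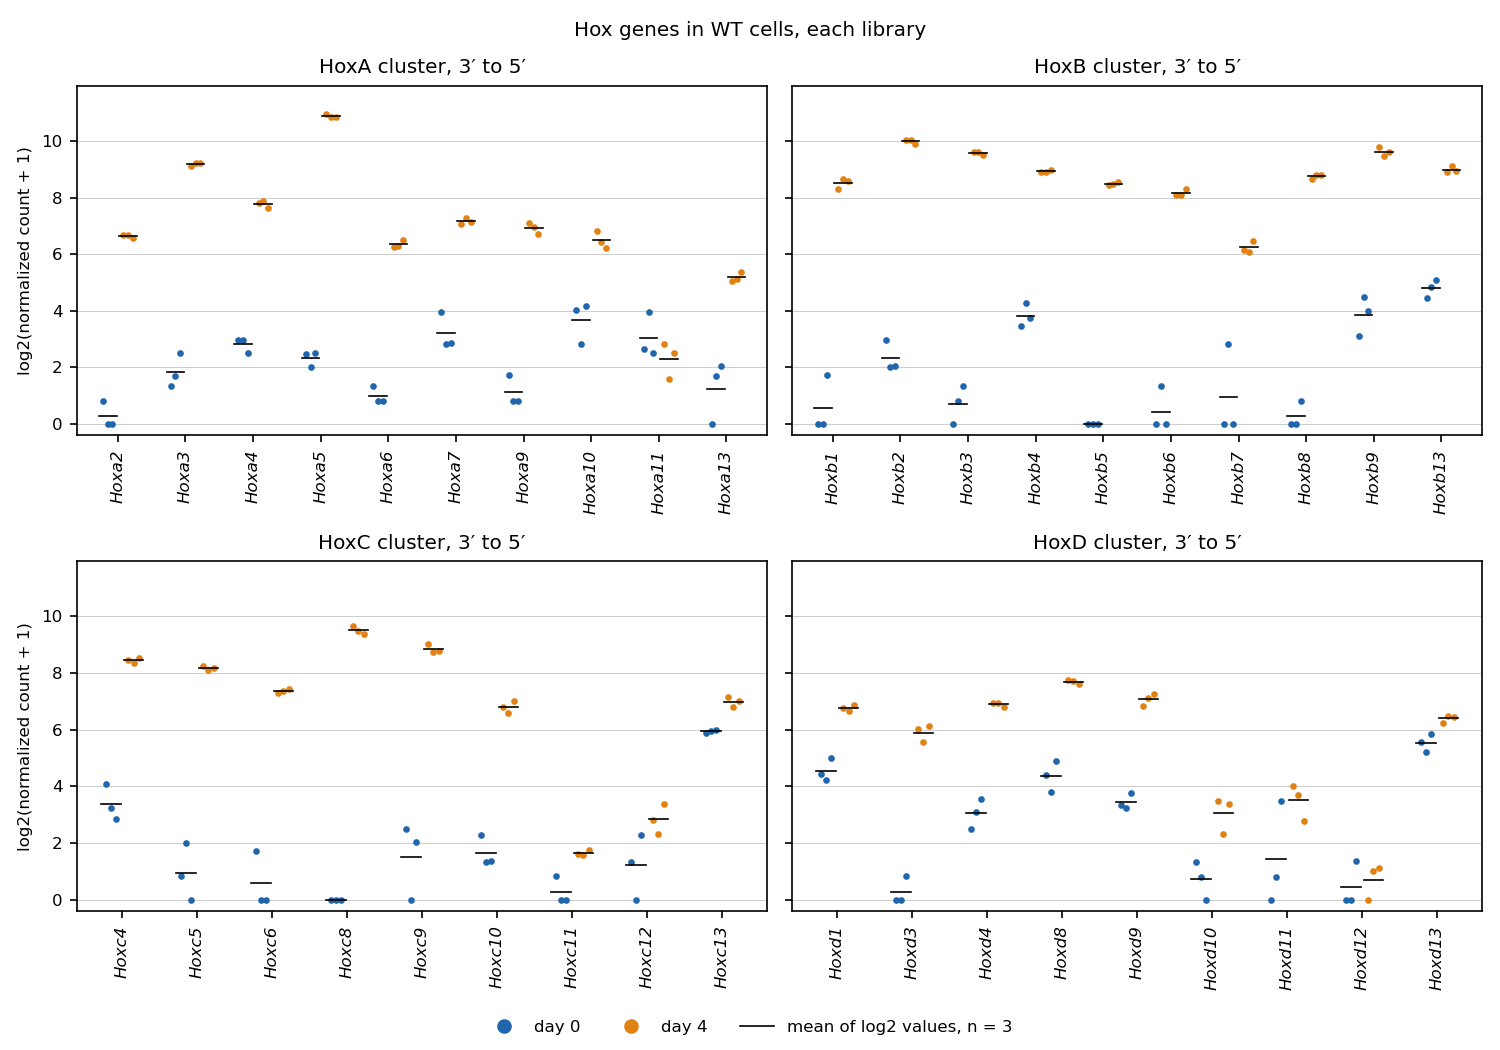
Hox genes in the order of each cluster, from the 3′ to the 5′ end, with the normalized count of each WT library as log2 of the count plus 1. Each point is 1 library (blue day 0, orange day 4). 38 genes are drawn. The 33 tested genes among them have higher means at day 4, and among them only the points of Hoxd11 overlap between the days.

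Most core pluripotency genes fell. In that list, of 11 tested, 1 was higher and 10 lower at day 4, with a median log2 change of -1.61. Pou5f1, which encodes the factor Oct4, had 33397, 33606 and 33167 at day 0 and 816, 1069.6 and 988 at day 4, with a log2 change of -5.13 ± 0.08 (SE) with an adjusted p of 2.2e-27. Nanog had 15544, 15267 and 15041 at day 0 and 524, 915 and 779.9 at day 4, with a log2 change of -4.40 ± 0.12 (SE) with an adjusted p of 1.8e-22. Sox2 had 7567, 7482 and 7785 at day 0 and 333, 357 and 396 at day 4, with a log2 change of -4.39 ± 0.07 (SE) with an adjusted p of 1.6e-27. All 3 genes had over 300 normalized counts in every day 4 library. Tdgf1, the Nodal co-receptor Cripto, had the largest fall of any gene named by rule, with 32565, 33865 and 33638 at day 0 and 111, 172 and 138 at day 4 and a log2 change of -7.91 ± 0.10 (SE) with an adjusted p of 5.2e-29. Utf1, a chromatin factor of undifferentiated cells, fell from 8134 ± 411 to 90.7 ± 18.8 and Sall4 fell from 5508 ± 35.7 to 1809.7 ± 104. Lin28b, an inhibitor of let-7 processing, rose from 738 ± 51.8 to 1063 ± 76.6, while its relative Lin28a had 6318, 5947 and 5603 at day 0 and 5029, 5308 and 5454 at day 4 with a small log2 change of -0.18 ± 0.05 (adjusted p = 0.0039) that depends on the scaling.

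Genes of the naive state, the ground state that LIF supports, had a lower median than the core list: of 32 tested, 3 were higher and 27 lower at day 4, with a median log2 change of -3.29. Esrrb had 12067, 12706 and 11842 at day 0 and 171, 292 and 262 at day 4 and Nr0b1 fell from 3101 ± 242 to 43.0 ± 12.4. Klf2 fell from 3284 ± 75.2 to 147 ± 39.6, Klf4 from 5733 ± 7.36 to 576 ± 15.1 and Prdm14 from 422 ± 5.93 to 15.7 ± 5.66. Zfp42 (Rex1) fell from 4496 ± 133 to 392 ± 27.8 and Dppa5a fell from 24018 ± 427 to 1170.2 ± 185. Fgf4, the growth factor that stem cells secrete under Oct4 and Sox2, fell from 6453 ± 148 to 75.0 ± 16.8. Tfcp2l1 kept more of its level, from 6561 ± 185 to 1662 ± 43.7. Members that rose belong to the LIF pathway itself: the receptor genes Lifr (from 1297 ± 58.7 to 3582 ± 136) and Il6st (from 1206 ± 49.3 to 3407 ± 104) and the transducer Stat3 (from 1513 ± 107 to 1910.4 ± 113), while the feedback inhibitor Socs3, a target of that pathway, fell from 3549.9 ± 159.5 to 366 ± 6.30.

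The formative and primed list, genes that mark the step after the naive state, mostly fell as well: of 17 tested, 3 were higher and 14 lower at day 4, with a median log2 change of -2.08. Otx2 had 61.3, 56.2 and 83.1 at day 0 and 8.13, 8.02 and 22.4 at day 4 and Pou3f1 fell from 346 ± 32.9 to 63.0 ± 10.7. Foxd3 fell from 444 ± 24.9 to 8.69 ± 3.72 and Etv4 from 3558 ± 142 to 99.2 ± 26.1. Nodal, the ligand that keeps the primed state, fell from 2128 ± 78.8 to 281 ± 42.0. Fgf5, the standard marker of the primed epiblast, rose but stayed low (1.53, 4.56 and 2.33 at day 0 and 57.9, 74.2 and 77.8 at day 4). Sox4 and Sall2, which are also expressed in many differentiating tissues, rose from 617 ± 64.0 to 6913 ± 420.1 and from 106 ± 3.60 to 1160.2 ± 47.4.

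**Figure D4:**
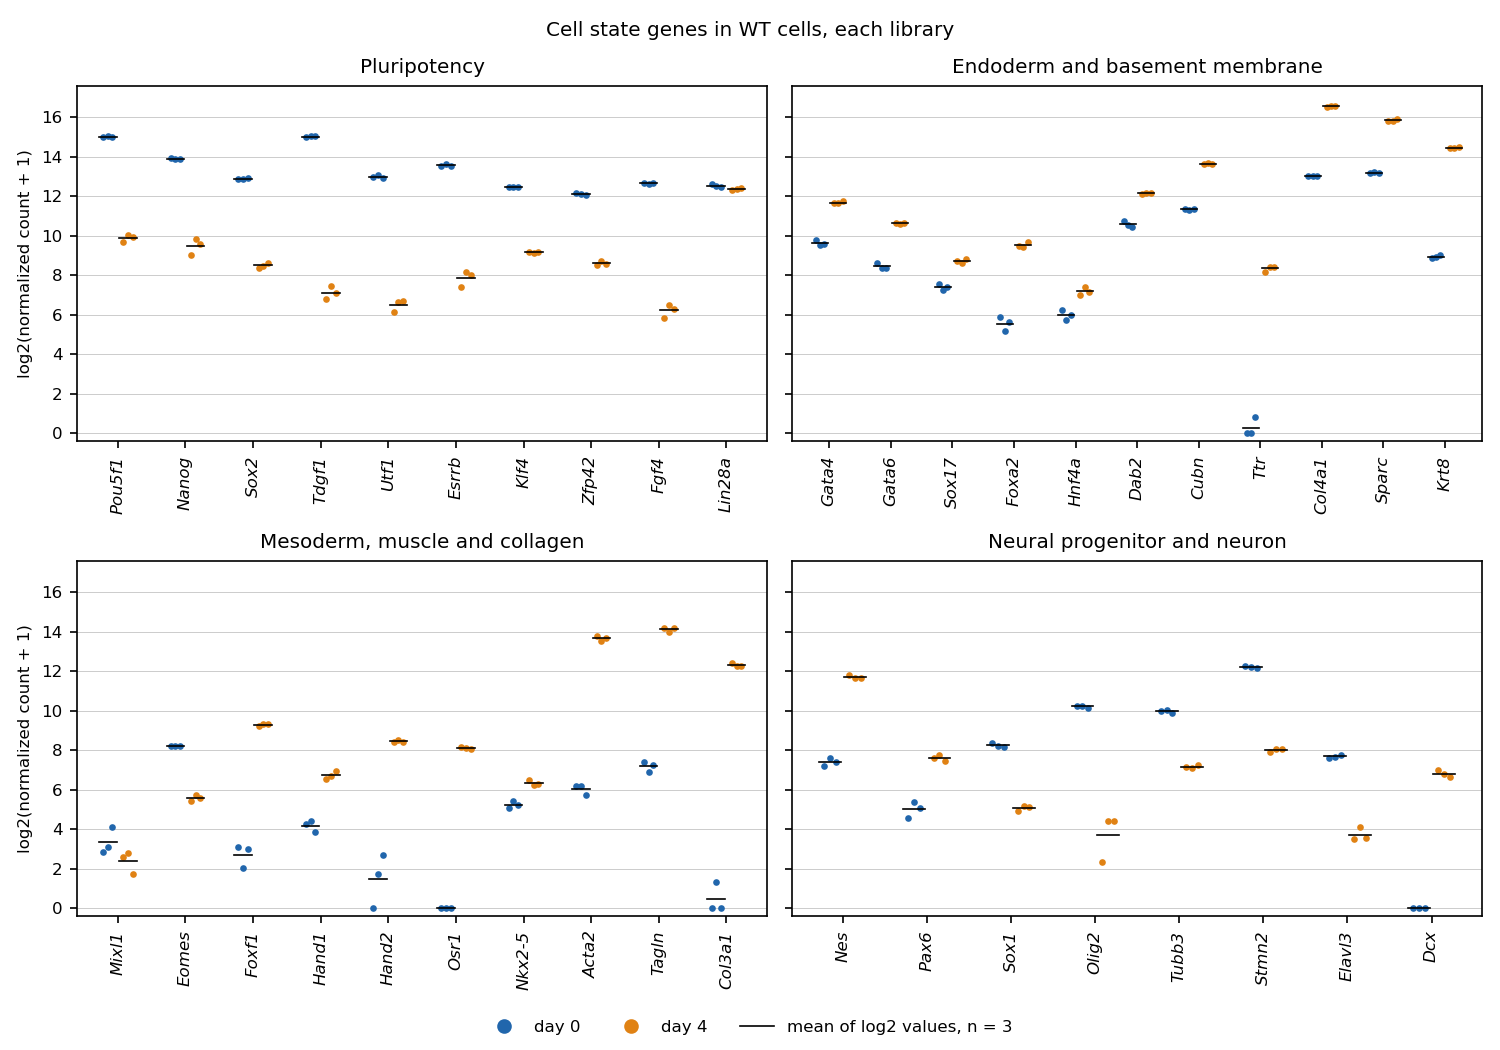
Normalized counts (log2 of the count plus 1) in each WT library for pluripotency genes, endoderm and basement membrane genes, mesoderm and muscle genes, and neural and neuron genes. Each point is 1 library (blue day 0, orange day 4) and bars mark means. Pluripotency genes go down, most endoderm and muscle genes go up, and Nes and Pax6 rise while Sox1, Tubb3 and Stmn2 fall.

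Most endoderm factors were higher at day 4: of 14 tested, 10 were higher and 3 lower at day 4, with a median log2 change of 1.33. Gata4 and Gata6, the factors that specify extraembryonic endoderm, had 881, 744 and 780.5 at day 0 and 3242, 3186 and 3453 at day 4 and 399, 329 and 325 at day 0 and 1613, 1575 and 1610.5 at day 4, with log2 changes of 2.04 ± 0.07 and 2.19 ± 0.14 (SE). Gata5 had 0 to 1 read per library at day 0 and 378 at day 4. Sox17 rose from 169 ± 16.8 to 420.2 ± 28.2 and Sox7 from 207 ± 14.0 to 304 ± 19.9. The pioneer factors Foxa1 and Foxa2 rose from 17.7 ± 2.37 to 676 ± 17.7 and from 47.1 ± 11.4 to 744 ± 74.9. Hnf4a rose from 63.2 ± 10.2 to 146 ± 20.9.

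Genes that visceral endoderm uses to take up and carry nutrients went both ways: of 24 tested, 16 were higher and 7 lower at day 4, with a median log2 change of 2.05. The endocytic adaptor gene Dab2 rose from 1529 ± 173 to 4553 ± 37.2 and the receptor gene Cubn rose from 2631 ± 58.5 to 12809 ± 322, but Amn, which encodes the partner that anchors cubilin in the membrane, fell from 228 ± 5.22 to 59.9 ± 11.0. Ttr, the thyroid hormone carrier, had 0, 0 and 0.78 at day 0 and 291, 345 and 346 at day 4 and Afp, alpha-fetoprotein, had no read at day 0 and a mean of 115 at day 4 (at least 49.8-fold higher). Apoa1 rose from 5.36 ± 2.27 to 414 ± 50.2 and Apoa4 was at least 27.6-fold higher, while Apoe fell from 12135 ± 409 to 3135 ± 243 and Apoa2 fell from 130.1 ± 8.45 to 23.5 ± 7.14. Pdgfra, a receptor of primitive endoderm and of mesenchyme, rose from 548 ± 40.4 to 2323 ± 100.1.

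The basement membrane and parietal endoderm list held 0.47 to 0.48% of the normalized counts at day 0 and 2.67 to 2.74% at day 4. Of its members, of 22 tested, 21 were higher and 1 lower at day 4, with a median log2 change of 2.31. Col4a1, a chain of type IV collagen, had 8494, 8431 and 8233 at day 0 and 94929, 98354 and 96653 at day 4, with a log2 change of 3.53 ± 0.05 (SE) with an adjusted p of 4.2e-28. Its partner chain gene Col4a2 rose from 4278 ± 102 to 52898 ± 1062. The 2 genes lie head to head with annotation that overlaps, and reads in the shared stretch cannot be told apart where counting ignored strand. The laminin chains that assemble with collagen IV rose by less: Lama1 had a log2 change of 1.77 ± 0.05, Lamb1 1.98 ± 0.05 and Lamc1 1.23 ± 0.04 (SE). Sparc, a collagen-binding matrix protein, had 9294, 9649 and 9125 at day 0 and 56958, 57936 and 61460.4 at day 4. The plasminogen activator gene Plat rose from 56.3 ± 12.2 to 3919 ± 107 and thrombomodulin, Thbd, rose from 10.8 ± 6.96 to 113 ± 5.43. The simple-epithelium keratin genes Krt8 and Krt18 rose from 494 ± 20.2 to 22409 ± 682 and from 225 ± 28.1 to 14166 ± 171, and Krt19 rose from 158 ± 24.1 to 5059 ± 159. Plod1, a collagen hydroxylase gene, was the member that fell, by little (log2 change -0.23), and its call is lost with equal column totals.

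Mesoderm genes went both ways: of 25 tested, 17 were higher and 7 lower at day 4, with a median log2 change of 3.48. The list mixes stages and was not divided for a count. Of genes known from the primitive streak and nascent mesoderm, Eomes had 293, 294 and 299 at day 0 and 41.7, 52.1 and 45.9 at day 4, Mesp2 fell from 74.3 ± 13.4 to 22.5 ± 6.53, and Mixl1 had 6.13, 7.59 and 16.3 at day 0 and 5.08, 6.01 and 2.36 at day 4 (adjusted p = 0.074). Mesp1 (4.35 and 0.39) and the brachyury gene T (3.58 and 3.19) were below the filter. Of genes known from later mesoderm, Foxf1 of lateral plate had 7.66, 3.04 and 6.99 at day 0 and 595, 637 and 630.3 at day 4, Foxc2 rose from 16.7 ± 6.04 to 717 ± 8.76 and Hand2 rose from 2.57 ± 2.73 to 349.6 ± 16.8. Hand1 rose from 17.4 ± 3.76 to 105 ± 14.5 and Wt1 of the mesothelium rose from 59.3 ± 6.35 to 909 ± 54.5. Osr1, a gene of intermediate mesoderm, had no read at day 0 and a mean of 273 at day 4 (at least 119-fold higher). Tcf15, named for paraxial mesoderm but also a gene of the formative state, fell from 1045 ± 123 to 55.4 ± 5.11.

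Most genes of the heart and smooth muscle list were higher. Acta2, smooth muscle actin, had 71.2, 72.2 and 51.3 at day 0 and 13852, 11573 and 13296 at day 4, with a log2 change of 7.63 ± 0.16 (SE) with an adjusted p of 4.8e-25. Tagln had 165, 119 and 152 at day 0 and 18895, 16314 and 18491 at day 4, with a log2 change of 6.94 ± 0.12 (SE) with an adjusted p of 4.8e-27. For both genes all 3 day 4 libraries stood far above all 3 of day 0. Acta1 rose from 14.3 ± 6.32 to 858 ± 35.9 and Myh11 rose from 4.35 ± 2.90 to 223 ± 30.3. The cardiac factor gene Nkx2-5 rose from 37.1 ± 5.21 to 79.0 ± 7.42, Tbx20 rose from 16.6 ± 8.96 to 289 ± 7.69 and Isl1 rose from 7.92 ± 3.40 to 72.9 ± 6.40. Myh6 and Myl4, which encode heart contractile proteins, fell from 87.7 ± 11.2 to 26.2 ± 6.15 and from 108 ± 15.8 to 25.8 ± 7.40. The list as a whole held 0.014 to 0.016% of the normalized counts at day 0 and 0.39 to 0.44% at day 4, and of 22 tested, 19 were higher and 2 lower at day 4, with a median log2 change of 3.57.

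Interstitial collagens and fibroblast genes gave some of the largest rises. Col3a1, a fibrillar collagen of loose connective tissue (chromosome 1, 45311538 to 45349706, plus strand), had 0, 1.52 and 0 at day 0 and 5397, 4899 and 4855 at day 4, a ratio of 9974-fold (95% counting interval 2738 to 81681). Col1a1 rose from 24.0 ± 7.55 to 959 ± 70.6, Col5a1 from 314 ± 13.5 to 3872 ± 184 and Col12a1 from 2.30 ± 0.026 to 3266 ± 386. Col1a2, whose product pairs with that of Col1a1, reached only 79.5 from 2.30. Col2a1, the collagen of cartilage and notochord, rose from 79.6 ± 12.1 to 1576 ± 79.0. Dcn and Postn, matrix proteins of fibroblasts, had no read at day 0 and were at least 83.5-fold and at least 38.9-fold higher, whereas Thy1 fell from 111 ± 8.19 to 33.4 ± 3.58. Of the collagens outside the basement membrane, of 19 tested, 17 were higher and 0 lower at day 4, with a median log2 change of 4.12. None of these was lower at an unadjusted p below 0.05 in limma, and 1 was called lower with edgeR and with DESeq2. In the fibroblast list, which shares several of them, of 15 tested, 12 were higher and 2 lower at day 4, with a median log2 change of 3.61.

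The neural lists did not move as one. In the progenitor list, of 22 tested, 12 were higher and 5 lower at day 4, with a median log2 change of 1.17. Nes, the intermediate filament gene of neural and many other progenitors, had 145, 192 and 169 at day 0 and 3616, 3169 and 3155 at day 4, with a log2 change of 4.30 ± 0.09 (SE) with an adjusted p of 1.5e-24. Pax6 rose from 32.2 ± 9.03 to 195 ± 21.7 and Irx3 rose from 17.9 ± 3.99 to 518 ± 2.02. Sox1, the earliest marker of committed neural tissue, fell instead and had 325, 296 and 281 at day 0 and 29.5, 35.1 and 34.2 at day 4. Olig2, a factor of motor neuron and oligodendrocyte precursors, fell from 1189 ± 46.8 to 14.7 ± 9.22 and En2 fell from 185 ± 12.5 to 26.8 ± 5.39. Neurog2 and Hes5 were below the filter. The rhombomere gene Egr2 had 7.66, 0.76 and 7.77 at day 0 and 15.2, 6.01 and 13.0 at day 4 and its days overlapped (adjusted p = 0.068).

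Neuron genes were mostly lower at day 4: of 25 tested, 7 were higher and 16 lower at day 4, with a median log2 change of -1.73. The neuronal tubulin gene Tubb3 had 1017, 1056 and 925 at day 0 and 140.2, 135 and 148 at day 4 and the microtubule regulator Stmn2 had 4852, 4741 and 4630.0 at day 0 and 241, 263 and 262 at day 4. Elavl3 fell from 204 ± 11.4 to 12.3 ± 3.27, Neurod1 from 492 ± 50.4 to 10.5 ± 6.92 and the neurofilament genes Ina and Nefl from 456 ± 23.2 to 62.5 ± 7.43 and from 977 ± 1.75 to 409.7 ± 14.1. Dcx, the marker of young migrating neurons, had no read at day 0 and a mean of 112 at day 4 (at least 48.6-fold higher), and Ncam1 rose from 169 ± 17.7 to 745 ± 50.4. The neuron list held 0.062 to 0.065% of the normalized counts at day 0 and 0.02 to 0.021% at day 4.

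Neural crest and surface epithelium genes were mostly higher. In the crest list, of 14 tested, 10 were higher and 2 lower at day 4, with a median log2 change of 3.05. Sox9, which acts in crest, cartilage and gut, rose from 4.85 ± 3.07 to 528 ± 61.6, Snai2 rose from 8.17 ± 2.28 to 239 ± 12.7 and Ets1 rose from 70.1 ± 6.41 to 1004 ± 53.3, while Ngfr fell from 310.1 ± 43.0 to 54.1 ± 10.00 and Mitf fell from 80.0 ± 16.4 to 23.4 ± 10.6. In the epithelium list, of 14 tested, 10 were higher and 3 lower at day 4, with a median log2 change of 1.95. Dsp, the desmosome plaque gene, rose from 107 ± 8.21 to 5288 ± 154 and Krt7 rose from 24.1 ± 3.67 to 1208 ± 30.0. Trp63, the basal epithelium factor, had no read at day 0 and reached 10.0. Epcam, a marker of both stem cells and epithelia, fell from 3459.8 ± 73.5 to 1454 ± 73.8, and Cdh1, E-cadherin, rose slightly from 5703 ± 113 to 6509 ± 116.

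Most adhesion and matrix receptor genes of the lists were higher. In the list of cadherins and genes of epithelial-mesenchymal transition, of 16 tested, 14 were higher and 1 lower at day 4, with a median log2 change of 1.70, and Epcam was the member that fell. Cdh2, N-cadherin, had 119, 88.9 and 93.2 at day 0 and 1951, 1635 and 1836 at day 4 and Vim, vimentin, had 2035, 2186 and 1909.6 at day 0 and 13512, 12224 and 13232 at day 4. Fn1, fibronectin, rose with a log2 change of 0.50 ± 0.06 (SE) from an already high level of 14795. Snai1 rose from 100.2 ± 15.4 to 309.6 ± 13.7 and Zeb1 rose from 324 ± 41.5 to 774 ± 47.8. Of the integrins, of 15 tested, 12 were higher and 0 lower at day 4, with a median log2 change of 1.60, and 1 was lower at an unadjusted p below 0.05, with edgeR and with DESeq2. Itgb1, the common beta chain of matrix receptors, rose from 3465 ± 63.5 to 15508 ± 851, Itga3 from 1896 ± 82.7 to 6433 ± 111 and Itgav from 768 ± 3.74 to 2359 ± 277.

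Markers of other cell types that such a culture could hold were checked. The blood marker Ptprc had 0 normalized counts in the mean of both days, and the embryonic globin genes Hba-x and Hbb-y were also at 0. Gata2 and the VEGF receptor gene Flt1 rose from 28.1 ± 12.8 to 251 ± 8.44 and from 90.1 ± 16.5 to 2589 ± 58.8, while the endothelial genes Tek and Vwf fell from 265 ± 34.0 to 59.6 ± 8.82 and from 132 ± 15.5 to 7.78 ± 3.50. Cdh5, the endothelial cadherin, had 17.6, 18.2 and 15.5 at day 0 and 5.08, 16.0 and 9.42 at day 4 (adjusted p = 0.077). Over the blood and endothelium list, of 13 tested, 3 were higher and 8 lower at day 4, with a median log2 change of -1.01. In the trophectoderm list, of 11 tested, 5 were higher and 4 lower at day 4, with a median log2 change of -0.13. There Gata3 rose from 6.38 ± 1.55 to 607 ± 22.9, Tfap2c fell from 1292 ± 127 to 122 ± 16.4, and the defining factor Elf5 was below the filter (0 and 0.73).

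Germline genes mostly fell: of 24 tested, 3 were higher and 15 lower at day 4, with a median log2 change of -1.20. The meiotic axis gene Sycp3 fell from 888 ± 33.8 to 45.2 ± 6.01 and Dazl fell from 641 ± 27.4 to 407 ± 77.3. Rec8, a meiotic cohesin gene, rose from 276 ± 20.0 to 2001 ± 106 and Taf7l rose from 87.0 ± 19.5 to 315 ± 39.7. Genes of the 2-cell-like state, a rare state within stem cell cultures, were mostly not called, and of 16 tested, 4 were higher and 1 lower at day 4, with a median log2 change of 0.55. With the 6 WT libraries fitted alone, 10 of them were called higher. Zscan4d had 262, 276 and 217 at day 0 and 389, 598 and 482 at day 4 with a log2 change of 0.94 ± 0.23 (SE) with an adjusted p of 0.00047. Zscan4 genes are near-identical copies, so the split of reads between them is uncertain.

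Most imprinted genes of the list were higher at day 4. There, of 28 tested, 24 were higher and 3 lower at day 4, with a median log2 change of 2.35, and it held 0.22 to 0.23% of the normalized counts at day 0 and 1.35 to 1.43% at day 4. Igf2, the fetal growth factor gene (chromosome 7, 142650766 to 142666816, minus strand), had 189.9, 149 and 164 at day 0 and 24578, 22831 and 24034 at day 4, with a log2 change of 7.15 ± 0.11 (SE) with an adjusted p of 4.4e-28. H19, the noncoding RNA gene next to it, had 295, 292 and 263 at day 0 and 10272, 11902 and 11390.1 at day 4, with a log2 change of 5.30 ± 0.08 (SE) with an adjusted p of 1.2e-27. Peg10, a gene from a retrotransposon, had 9039.7, 8739 and 8120.0 at day 0 and 78739, 69918 and 73329.9 at day 4. Mest rose from 1461 ± 63.8 to 12209 ± 433, Plagl1 from 100.5 ± 18.6 to 4196 ± 359, Dlk1 from 37.9 ± 8.97 to 2079 ± 134 and Cdkn1c, an inhibitor of cell division, from 497 ± 57.8 to 3393 ± 61.4. Phlda2, which restrains placental growth, fell from 1549 ± 83.8 to 92.8 ± 17.0 and Snrpn fell from 1068 ± 47.1 to 413 ± 19.6. Paternally and maternally expressed genes are both among the rises, and the counts do not separate the parental alleles.

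In the FGF list, of 24 tested, 7 were higher and 14 lower at day 4, with a median log2 change of -0.73. Spry4, a feedback inhibitor of the pathway, had 2859.8, 2609 and 2243 at day 0 and 26.4, 52.1 and 33.0 at day 4, and Fgf17 fell from 454 ± 18.0 to 13.5 ± 2.23. Fgfr2 rose from 199 ± 30.1 to 2065 ± 18.8, whereas Fgfr1 had 1674, 1640.5 and 1686 at day 0 and 1811, 1807 and 1797 at day 4 (adjusted p = 0.053). The locus annotated for Fgfr2 (chromosome 7, 130162451 to 133123350) overlaps many tested genes on both strands, such as Ate1 and Oat on its own. Reads in shared stretches may not be told apart. The Nodal targets Lefty1 and Lefty2 fell from 506 ± 64.8 to 174 ± 65.4 and from 269.5 ± 30.9 to 79.3 ± 20.8, and Inhbb, a subunit of activin, fell from 1572 ± 64.1 to 15.1 ± 1.65.

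Lefty1, Lefty2 and Inhbb belong to a list of Nodal, TGF-beta and BMP genes in which, of 35 tested, 25 were higher and 8 lower at day 4, with a median log2 change of 1.75. Bmp2 rose from 13.8 ± 5.96 to 221 ± 14.4, and Bmp5 had no read at day 0 and was at least 144-fold higher. Of the inhibitor-of-differentiation genes, which BMP signalling induces, Id1 rose from 637 ± 58.8 to 2098 ± 119.6, Id2 from 138 ± 11.0 to 1487 ± 60.4 and Id3 from 204 ± 17.6 to 3764 ± 39.4, while Id4 fell from 119.5 ± 13.5 to 78.7 ± 8.22. Tgfb2 rose from 9.70 ± 2.37 to 794 ± 115 and the antagonist Fst rose from 37.1 ± 4.27 to 488 ± 32.7. In the Wnt list, of 37 tested, 23 were higher and 8 lower at day 4, with a median log2 change of 0.93. The ligand genes Wnt4, Wnt5a and Wnt6 rose from 9.46 ± 3.76 to 322 ± 14.8, from 50.2 ± 16.3 to 388 ± 22.6 and from 24.6 ± 4.43 to 125 ± 38.6, while Axin2, a feedback target of beta-catenin, fell from 403 ± 40.8 to 277 ± 22.4 and the receptor gene Fzd5 fell from 2575 ± 28.1 to 282 ± 7.26.

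For Notch and Hedgehog, of 22 tested, 12 were higher and 9 lower at day 4, with a median log2 change of 0.53. Notch1 and Notch3 rose with log2 changes of 0.45 ± 0.06 and 0.83 ± 0.08 (SE), Notch4 fell from 339.9 ± 30.0 to 20.3 ± 10.7 and Jag1 fell from 249 ± 5.89 to 78.0 ± 4.64. Gli3, a transducer of Hedgehog signals, rose from 201 ± 16.1 to 1407 ± 102. Shh itself had a mean of 0.51 at day 0 and 50.2 at day 4.

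Genes of the H3K4 methyltransferase complexes, which include the genes the series targets, changed in both directions: of 20 tested, 7 were higher and 11 lower at day 4, with a median log2 change of -0.30. Kmt2a, which encodes MLL1, had 1097, 1047 and 1121 at day 0 and 2239, 2029 and 2156 at day 4, with a log2 change of 0.97 ± 0.20 (SE) with an adjusted p of 6.8e-05. Kmt2b, which encodes MLL2, had 2854, 2899.7 and 2803 at day 0 and 2218, 2258 and 2332 at day 4, with a log2 change of -0.33 ± 0.06 (SE) with an adjusted p of 3.5e-05. Both genes were thus present in every WT library, one going up and the other down. Kmt2c rose with a log2 change of 0.65 ± 0.06 and Setd1b with 0.94 ± 0.08. Of the shared core subunits, Wdr5 fell from 6197 ± 72.3 to 2172 ± 72.0, Rbbp5 from 1981 ± 51.0 to 902 ± 71.3 and Dpy30 from 2129 ± 108 to 568 ± 67.9.

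Polycomb genes, which maintain silence at genes such as the Hox clusters, changed in both directions: of 29 tested, 10 were higher and 17 lower at day 4, with a median log2 change of -0.40. Ezh2, the methyltransferase of dividing cells, fell from 3439 ± 74.6 to 1705 ± 55.3 and its relative Ezh1 rose from 569.7 ± 27.2 to 717 ± 13.4. Jarid2, Epop and Phf19, accessory subunits in stem cells, fell from 6986 ± 503 to 2655 ± 51.1, from 7283 ± 497 to 1689.5 ± 104 and from 354 ± 14.6 to 46.2 ± 4.40, and Phc1 fell from 9971 ± 373 to 993 ± 81.1. Bmi1 rose from 191 ± 1.74 to 1025 ± 72.7, and Cbx8 rose from 37.6 ± 10.7 to 223 ± 11.0.

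DNA methylation genes were mostly lower: of 16 tested, 4 were higher and 11 lower at day 4, with a median log2 change of -0.91. The de novo methyltransferases Dnmt3a and Dnmt3b fell from 5504 ± 436 to 2909 ± 81.4 and from 3242 ± 256 to 929.8 ± 23.0, and their cofactor Dnmt3l fell from 7182 ± 467 to 357 ± 47.0. Of the demethylating dioxygenases, Tet1 had 11072, 11024 and 11258 at day 0 and 1098, 1025 and 953 at day 4 and Tet3 had 123, 124 and 145 at day 0 and 953, 928 and 941 at day 4. Tet1 thus fell with a log2 change of -3.44 ± 0.07 and Tet3 rose with 2.84 ± 0.09 (SE), and Tet2 fell from 2562 ± 80.1 to 962 ± 46.9.

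Genes of DNA replication and mitosis went down: of 22 tested, 0 were higher and 21 lower at day 4, with a median log2 change of -1.26. None was higher at an unadjusted p below 0.05 or with edgeR or DESeq2 either. The helicase subunit Mcm5 fell from 9155 ± 182 to 2567 ± 156, the ribonucleotide reductase gene Rrm2 from 6804 ± 121 to 1592 ± 33.5 and cyclin B1, Ccnb1, from 8728 ± 72.1 to 3409.5 ± 76.9. Mki67, the general marker of cycling cells, was the member that did not pass, with 5029, 5257 and 5303 at day 0 and 5348, 5285 and 4879 at day 4 (adjusted p = 0.9). In the list of cyclins, their kinases, kinase inhibitors and the retinoblastoma and Mycn families, of 20 tested, 9 were higher and 7 lower at day 4, with a median log2 change of 0.082. Of the kinase inhibitors, Cdkn1a rose from 1231 ± 87.3 to 2857 ± 211, Cdkn2a from 69.9 ± 12.4 to 712 ± 37.0, Cdkn2b from 28.4 ± 6.06 to 553 ± 17.3 and Cdkn2c from 65.5 ± 2.12 to 110.1 ± 11.2 (a call lost with quantile scaling), and Cdkn1b (adjusted p = 0.062) and Cdkn2d (adjusted p = 0.99) did not pass. Cyclin genes changed in both directions, with Ccnd1 falling from 2315 ± 183 to 366 ± 7.42, Ccne1 falling from 3779 ± 153 to 676 ± 31.8 and Ccnd2 rising from 486 ± 35.0 to 2183 ± 51.2. Mycn, a growth-promoting proto-oncogene of stem cells, fell from 4316 ± 156 to 995 ± 52.6.

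Most genes of glycolysis and the hypoxia response were lower: of 27 tested, 1 was higher and 25 lower at day 4, with a median log2 change of -1.28. They held 2.52 to 2.77% of the normalized counts at day 0 and 1.07 to 1.18% at day 4. Ldha, which makes lactate, had 30105, 32861 and 33163 at day 0 and 8175, 8506 and 8907 at day 4, with a log2 change of -1.91 ± 0.07 (SE) with an adjusted p of 4.5e-19. Pfkp fell from 3200.3 ± 292 to 130.4 ± 26.3, Hk2 from 3458 ± 147 to 1663 ± 38.0 and the glucose transporter gene Slc2a1 from 12843 ± 850.1 to 7620.1 ± 526. Eno2 was the member that rose, from 76.5 ± 11.8 to 169.8 ± 4.29. Genes of the integrated stress response, which cells use when amino acids run short, were mostly lower too: of 17 tested, 2 were higher and 14 lower at day 4, with a median log2 change of -1.92. Asns, asparagine synthetase, had 11391, 11338 and 11274 at day 0 and 1423, 1670.0 and 1529 at day 4, and Trib3 and Chac1 fell from 1056 ± 47.1 to 124 ± 12.2 and from 429 ± 16.7 to 52.5 ± 4.86. Atf3 and Ppp1r15a were the members that rose, from 68.8 ± 9.56 to 518 ± 8.26 and from 695 ± 14.2 to 1067 ± 60.6.

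Stress-related transcripts of other kinds did not move one way. In the p53 list, of 17 tested, 10 were higher and 7 lower at day 4, with a median log2 change of 0.66. Trp53 itself fell from 6109.8 ± 189 to 1952 ± 19.2. Its targets Ccng1 and Mdm2, which were among the rises, went from 5063 ± 145 to 13029 ± 1010.1 and from 3032 ± 55.8 to 4364 ± 309. The lowest log2 change in the list was -3.72, of a member other than Trp53. The immediate early genes Jun and Klf6 rose from 139 ± 16.7 to 3511 ± 159 and from 602 ± 9.41 to 3829 ± 149, and Dusp1 fell from 1617 ± 55.6 to 750.0 ± 41.3. In the list of interferon and antigen presentation genes, of 18 tested, 11 were higher and 6 lower at day 4, with a median log2 change of 1.28. B2m, the light chain of class I molecules, rose from 276 ± 10.7 to 1794 ± 69.3, and Ifitm1 and Bst2, which stem cells express, fell from 1462 ± 62.8 to 434 ± 76.4 and from 1049 ± 23.8 to 366 ± 9.05.

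The 15 largest rises and 15 largest falls were named by rule, from called genes whose mean reached 50 on the higher day and whose libraries did not overlap. Beside Cyp26a1, Rarb, Nr2f2, Hoxa5, Hoxb3, Hoxc8, Col3a1 and Col12a1, the rises were Ecm1, Masp1, Gpr50, Ccdc80, Svep1, Pcdh7 and Fat4. Ecm1, a secreted matrix protein gene, had 29.1, 28.1 and 31.8 at day 0 and 19058, 17143 and 17956 at day 4, with a log2 change of 9.20 ± 0.15 (SE) with an adjusted p of 3e-27. Ccdc80, Svep1 and Pcdh7 had no read at day 0 and were at least 344-fold, at least 322-fold and at least 242-fold higher. The first 2 encode secreted or matrix-bound proteins and the last is a protocadherin. Fat4, a very large cadherin of the planar polarity system, had 1 read at day 0 and a mean of 726 at day 4. Masp1, a complement protease gene, rose from 1.53 ± 1.52 to 1087 ± 46.2 and Gpr50, an orphan receptor gene, rose from 1.78 ± 1.58 to 906 ± 58.5.

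Beside Tdgf1, Utf1, Olig2, Tcl1 and Inhbb, the falls were Nphs1, Eif3j1, Khdc3, Olig1, Ly6g6e, Nkx6-3, Igsf21, Kirrel2, Chrna9 and Gtsf1l. Nphs1 and Kirrel2 encode partners of the kidney slit diaphragm, and fell from 726 ± 24.6 to 2.85 ± 1.61 and from 369.9 ± 31.7 to 2.80 ± 0.39. Olig1, the neighbour of Olig2 on chromosome 16, fell from 1208 ± 49.3 to 10.4 ± 4.57. Khdc3, an oocyte and early embryo gene, fell from 704 ± 25.7 to 4.04 ± 2.67 and Tcl1, a coactivator of Akt kinase, fell from 1487 ± 39.2 to 15.5 ± 10.8. Igsf21 and Gtsf1l fell from 379 ± 32.9 to 3.08 ± 2.58 and from 546 ± 13.2 to 6.22 ± 4.29. The homeobox gene Nkx6-3 had 217, 194 and 174 at day 0 and 1.02, 2.00 and 0 at day 4. Ly6g6e and the acetylcholine receptor gene Chrna9 fell to means of 1.06 and 1.00 from 207 and 148. Eif3j1 had 6.13, 2063 and 937 at day 0 and 0, 1.00 and 0 at day 4, with day 0 libraries that differed widely among themselves. It has a near-identical copy, so its values are uncertain.

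The WT change was also set against the mean change of the 3 mutant genotypes over the same 4 days, in one test of the difference. Of 15114 genes, 4644 differed (30.7%), with 2370 changing more upward in WT (15.7%) and 2274 less (15.0%). The groups compared differ in genotype and, for Mll2-KO and double-KO, in 4-OHT, which cannot be told apart. Cyp26a1 changed by 8.79 in WT, 9.30 in Mll1-KO, 9.28 in Mll2-KO and 9.22 in double-KO, and the difference of -0.48 ± 0.19 (SE, adjusted p = 0.059) did not pass. Rarb changed by 8.69 in WT, 9.71 in Mll1-KO, 8.11 in Mll2-KO and 10.06 in double-KO, with a difference of -0.61 ± 0.54 (SE, adjusted p = 0.43). Pou5f1 changed by -5.13 in WT, -6.64 in Mll1-KO, -3.70 in Mll2-KO and -4.96 in double-KO, with a difference of -0.031 ± 0.10 (SE, adjusted p = 0.84). Acta2 and Igf2 had differences of 0.35 ± 0.18 (SE, adjusted p = 0.15) and -0.049 ± 0.12 (SE, adjusted p = 0.81). Sox2 changed by -4.39 in WT, -5.94 in Mll1-KO, -4.17 in Mll2-KO and -5.53 in double-KO, with a difference from the mutants' mean of 0.82 ± 0.08 (SE, adjusted p = 1.4e-08). Col4a1 rose less in WT than in the mean of the mutants, with changes of 3.53 in WT, 5.53 in Mll1-KO, 4.07 in Mll2-KO and 6.55 in double-KO and a difference of -1.86 ± 0.06 (SE, adjusted p = 1.8e-18). Its day 0 means were 8386 in WT, 1087 in Mll1-KO, 8147 in Mll2-KO and 810 in double-KO. At day 4 they were 96646, 50196, 136905 and 75778.5 in the same order, so WT ended above Mll1-KO and double-KO. A p that misses the threshold does not show that the genotypes changed alike.

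**Figure D5:**
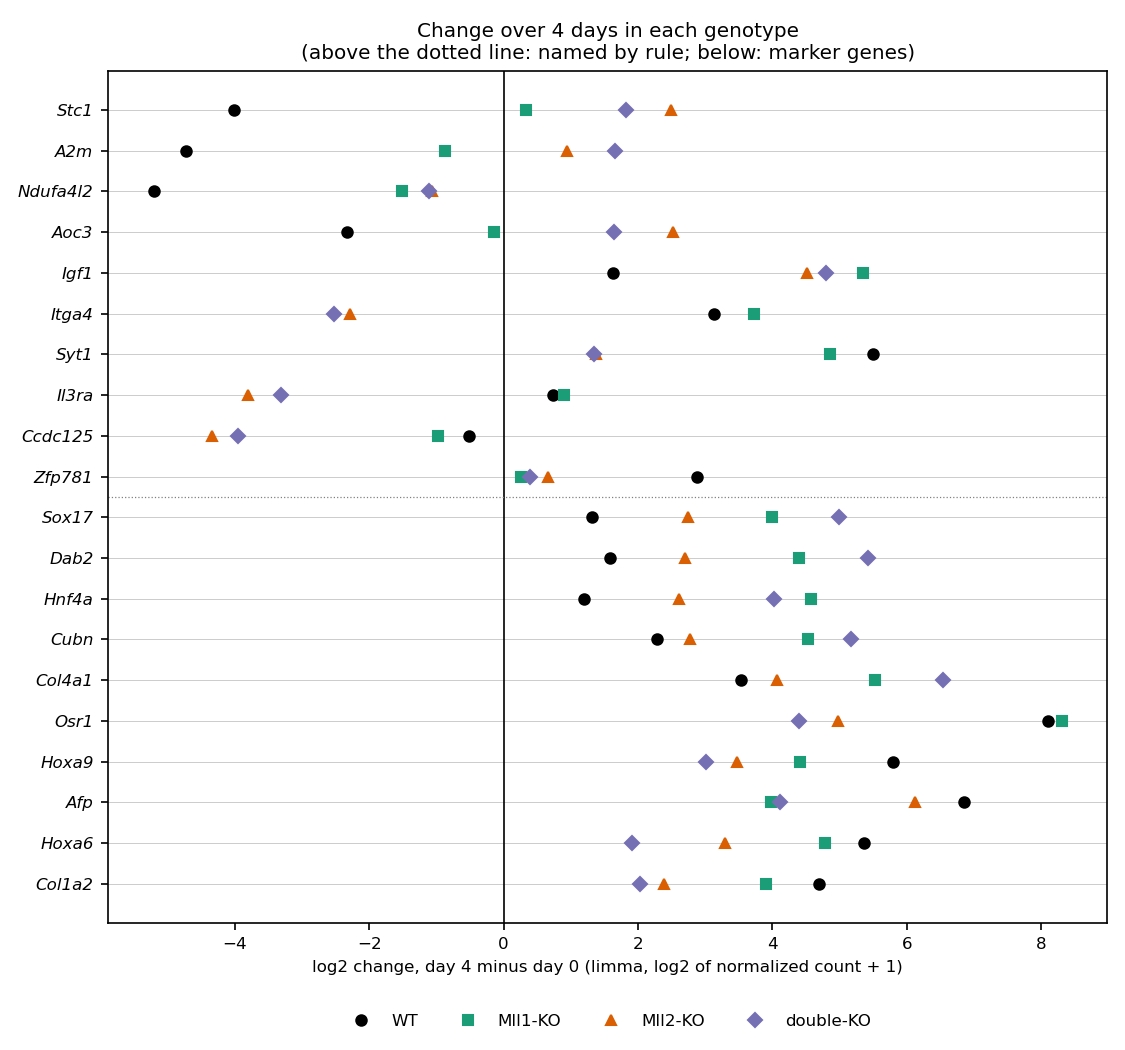
Log2 change from day 0 to day 4 in each of the 4 genotypes for the 10 genes with the largest differences between WT and the mean of the mutants by rule and for 10 marker genes chosen after their values were seen. Each point is the fitted change of 1 genotype over 3 and 3 libraries, with the vertical line at 0. Stc1, A2m, Ndufa4l2 and Aoc3 lie lowest in WT, and Itga4, Il3ra and Ccdc125 split WT and Mll1-KO from Mll2-KO and double-KO.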

How the data were processed

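Polyadenylated RNA was sequenced from stranded libraries, per the labels' protocols, and the deposited values are the authors' normalized counts per gene (a signal with no fixed unit) for 24 libraries. STAR 2.7.10a, RSEM 1.3.1, DESeq2 1.34.0, SAMtools 1.13, Trim Galore, FastQC and build mm10 are listed, with no role, per the submitters' processing notes. The annotation, the use of strand and the treatment of reads that fit several genes are not given in the sources used here. All values (100%) were whole multiples of 1 step per library within a tolerance of 1e-06, so read counts and depth could be recovered.

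All 24 libraries entered a limma 3.58.1 fit (trend, R 4.3.3) of log2(normalized count + 1) with 1 mean per genotype and day, for genes that reached 10 in 3 or more libraries. Called means a Benjamini-Hochberg adjusted p below 0.05. The second test set the WT change against the mean change of the 3 mutants. The fit was tested on simulated counts in which few genes changed between the WT days. Most tested genes were called in the real data, so that test does not show how the fit behaves here. Floors are 3 reads per library and intervals are exact at 95%, for counting error only. Alternatives were other pseudocounts, filters and scalings, a replicate block, the 6 WT libraries alone, edgeR 4.0.16 and DESeq2 1.42.0 on recovered reads, and leaving out each WT library. Replicates of a group differed by more than sampling noise (chi-square per degree of freedom 2.35 to 5.00). Gene positions come from GENCODE mouse release 21, in which 97.1% of symbols had 1 locus, and promoters from RefSeq (GRCm38.p6). The members and gene lists were chosen with earlier results of these data known. Named genes are the 15 largest called rises and falls with a mean of at least 50 and no overlap, the key genes of each list, up to 3 further rises and falls per list, and the 5 largest differences from the mutants in each direction. Some genes are not reported here and were left out of the lists. Lists were described by counts and medians, with no test.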

Additional observations from a re-analysis of the deposited data

Results flagged for a closer look

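The change over 4 days differed between WT and the mean of the 3 mutants for 4644 genes (limma, adjusted p below 0.05). The 20 genes below are given with each genotype's own log2 change and the difference between WT and the mutants' mean. The first 10 were named by rule as the 5 largest differences in each direction, and the other 10 were picked from the key genes of the lists after their values were seen. Mll2-KO and double-KO cells had 4-OHT, so genotype and drug cannot be told apart in those groups or in the mutants' mean. WT and Mll1-KO cells had none, so that pair does not differ in the drug.

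4 genes fell in WT and in the mutants fell less, rose or stayed near their day 0 level. Stc1, a secreted glycoprotein hormone gene, changed by -4.01 in WT, 0.34 in Mll1-KO, 2.49 in Mll2-KO and 1.82 in double-KO, a difference of -5.56 ± 0.69 (SE, adjusted p = 6.1e-07). At day 0 it had a mean normalized count of 56.5 in WT and 4.69, 0 and 0.29 in Mll1-KO, Mll2-KO and double-KO. A2m, a protease inhibitor gene, changed by -4.72 in WT, -0.87 in Mll1-KO, 0.94 in Mll2-KO and 1.66 in double-KO, a difference of -5.30 ± 0.39 (SE, adjusted p = 6.3e-11), from day 0 means of 441 in WT and 10.5 to 26.8 in the mutants. Ndufa4l2, a hypoxia-induced mitochondrial protein gene, changed by -5.21 in WT, -1.52 in Mll1-KO, -1.07 in Mll2-KO and -1.10 in double-KO, a difference of -3.98 ± 0.31 (SE, adjusted p = 1.6e-10), from 494 in WT and 35.3 to 54.2 in the mutants. Aoc3, an amine oxidase gene, changed by -2.33 in WT, -0.14 in Mll1-KO, 2.53 in Mll2-KO and 1.65 in double-KO, a difference of -3.68 ± 0.45 (SE, adjusted p = 5e-07). For these 4 genes the day 0 level of WT stood above every mutant group mean. Igf1, a growth factor gene, rose less in WT, with 1.63 in WT, 5.36 in Mll1-KO, 4.52 in Mll2-KO and 4.79 in double-KO and a difference of -3.26 ± 0.41 (SE, adjusted p = 6e-07). Its day 0 mean was 37.1 in WT and 2.77 to 9.27 in the mutants.

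4 of the 5 genes with the largest difference upward in WT set WT and Mll1-KO apart from Mll2-KO and double-KO. Itga4, an integrin chain gene, changed by 3.14 in WT, 3.72 in Mll1-KO, -2.29 in Mll2-KO and -2.52 in double-KO, a difference of 3.50 ± 0.63 (SE, adjusted p = 0.0001). Syt1, a synaptic vesicle protein gene, changed by 5.49 in WT, 4.85 in Mll1-KO, 1.37 in Mll2-KO and 1.34 in double-KO, a difference of 2.97 ± 0.58 (SE, adjusted p = 0.00026). Il3ra, a cytokine receptor gene, changed by 0.73 in WT, 0.90 in Mll1-KO, -3.80 in Mll2-KO and -3.31 in double-KO, a difference of 2.80 ± 0.31 (SE, adjusted p = 1e-07). Ccdc125 changed by -0.51 in WT, -0.98 in Mll1-KO, -4.34 in Mll2-KO and -3.95 in double-KO, a difference of 2.58 ± 0.45 (SE, adjusted p = 7.6e-05). At day 4, Il3ra had 202 in WT and 183 in Mll1-KO, against 6.08 in Mll2-KO and 4.31 in double-KO. Zfp781, a zinc finger gene, changed by 2.88 in WT, 0.26 in Mll1-KO, 0.66 in Mll2-KO and 0.39 in double-KO, a difference of 2.45 ± 0.73 (SE, adjusted p = 0.011), which loses its call with DESeq2 and without day 0 replicate 3.

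The endoderm genes Sox17, Dab2, Hnf4a and Cubn and the basement membrane gene Col4a1 rose less in WT than in the mean of the mutants. Other members of their lists also rose less in WT. Among them were Gata4 with a difference of -1.23 ± 0.08 (SE, adjusted p = 1.5e-12) and Gata6 with -1.65 ± 0.16 (SE, adjusted p = 1.3e-08). Col4a2 had -1.82 ± 0.05 (SE, adjusted p = 6.6e-20). For further members the difference did not pass, such as Foxa1 with 0.016 ± 0.21 (SE, adjusted p = 0.96) and Lamc1 with 0.061 ± 0.05 (SE, adjusted p = 0.34). Afp, given below, went the other way. Sox17 changed by 1.32 in WT, 3.99 in Mll1-KO, 2.75 in Mll2-KO and 4.99 in double-KO, a difference of -2.59 ± 0.21 (SE, adjusted p = 3.1e-10). Dab2 changed by 1.58 in WT, 4.40 in Mll1-KO, 2.70 in Mll2-KO and 5.42 in double-KO, a difference of -2.59 ± 0.11 (SE, adjusted p = 3e-16). Hnf4a changed by 1.20 in WT, 4.57 in Mll1-KO, 2.62 in Mll2-KO and 4.02 in double-KO, a difference of -2.54 ± 0.44 (SE, adjusted p = 6.1e-05). Cubn changed by 2.28 in WT, 4.53 in Mll1-KO, 2.77 in Mll2-KO and 5.18 in double-KO, a difference of -1.87 ± 0.07 (SE, adjusted p = 1e-17). The basement membrane gene Col4a1 changed by 3.53 in WT, 5.53 in Mll1-KO, 4.07 in Mll2-KO and 6.55 in double-KO, a difference of -1.86 ± 0.06 (SE, adjusted p = 1.8e-18). The day 0 levels moved with this result: Dab2 had 1529 in WT, 860.3 in Mll2-KO, 112 in Mll1-KO and 78.4 in double-KO. At day 4 its means were 4553, 5581, 2389 and 3361 in the same order. Col4a1 had 8386, 8147, 1087 and 810 at day 0 and 96646, 136905, 50196 and 75778.5 at day 4, again in that order. The part of the day 0 levels in the difference was not tested.

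5 genes of mesoderm, Hox clusters, endoderm and matrix rose more in WT than in the mean of the mutants. Osr1 had no read at day 0 in any genotype and means of 273 in WT, 316 in Mll1-KO, 30.5 in Mll2-KO and 20.1 in double-KO at day 4, a fitted difference of 2.21 ± 0.33 (SE, adjusted p = 1.2e-05) that depends on the pseudocount. Afp had no read at day 0 either and day 4 means of 115, 15.9, 69.3 and 16.6 in that order, a fitted difference of 2.11 ± 0.42 (SE, adjusted p = 0.00034). Hoxa9 changed by 5.80 in WT, 4.42 in Mll1-KO, 3.48 in Mll2-KO and 3.01 in double-KO, a difference of 2.17 ± 0.58 (SE, adjusted p = 0.0053). Hoxa6 changed by 5.36 in WT, 4.79 in Mll1-KO, 3.30 in Mll2-KO and 1.90 in double-KO, a difference of 2.03 ± 0.40 (SE, adjusted p = 0.00034). Col1a2 changed by 4.70 in WT, 3.91 in Mll1-KO, 2.38 in Mll2-KO and 2.02 in double-KO, a difference of 1.92 ± 0.62 (SE, adjusted p = 0.019). Among these, the calls of Osr1 and Afp are lost with edgeR and with DESeq2, that of Hoxa9 with edgeR, and that of Col1a2 with a pseudocount of 0.5 and without day 0 replicate 1 or without day 4 replicate 3. Hox genes did not share one direction. Hoxa7 (1.48 ± 0.33, SE, adjusted p = 0.0011) and Hoxc6 (1.72 ± 0.56, 0.021) also rose more in WT. Hoxb4 (-0.71 ± 0.24, 0.024) and Hoxc5 (-1.22 ± 0.45, 0.042) rose less. The difference of Hoxa5 (-0.019 ± 0.41, 0.98) did not pass.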

How the results depend on the processing

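The number of called genes was 12522 as reported, 11083 with a minimum of 50 and 13362 with no filter, 12665 with edgeR and 12562 with DESeq2, and 12152 to 12248 with 1 WT library left out. The number differing from the mutants was 4644, and 3946 to 4138 with 1 library left out. Replicate numbers did not pair the libraries (correlations of deviations -0.022, -0.043 and -0.020 for numbers 1, 2 and 3), and the replicate block moved the called genes to 12527 and the genes differing from the mutants to 4653 and changed no named gene's call. The share of calls that were higher was 51.9%, but 56.3% with equal column totals and 46.3% with quantile scaling. Among tested genes, 13 held the motif with a spacing of 2. With the hexamer AGGTCA only, 1 tested gene held the DR5 motif, which was Ppbp and not Cyp26a1 or Rarb.

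Of 314 called genes with a test that the text names, 306 kept direction and call under each of the 16 alternatives that could test them. Of all 325 named genes with a test, called or not, the same 306 held. Every named gene that was not called, such as Rara, Fgfr1, Cdkn1b, Mixl1, Cdh5 and Egr2, therefore changed sign or gained a call under at least 1 of the alternatives. List values held less well: of 129 list counts and medians, 75 stayed within 1.5 times (counts) or 1 SD (medians) of the reported value under all of them, and of 43 medians 1 (trophectoderm) changed sign under at least 1 of them. Crabp1 changed sign under quantile scaling (-0.17), as did Lin28a (0.026), and Mki67 went from -0.008 to 0.11 with equal totals, 0.21 with quantile scaling, and to between -0.033 and 0.033 without 1 library. Cdkn2d, at -0.0018, was 0.0046 with edgeR, 0.12 with equal totals and between -0.076 and 0.051 without 1 library. The lower calls of the early target list went from 5 to 2 without day 4 replicate 1, those of the mesoderm list from 7 to 3 and of the blood list from 8 to 3 with a minimum of 50, which tests fewer genes. The 2-cell-like list had 2 higher calls without day 4 replicate 2 and up to 10 in other fits, against 4. The trophectoderm median of -0.13 ran from -0.42 to 0.0005. Where no other cause is named, the cause was not tested. Genes with few reads at day 0 are limited by depth, since 1 read there is worth about as much as the pseudocount.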

Other observations

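Genes on the X chromosome were shifted upward in WT cells. Over 536 tested X-linked genes the median log2 change was 0.46, against 0.038 over 14275 autosomal genes. Of X-linked genes, 53.5% were called higher and 28.7% lower, against 42.9% and 40.2% of autosomal genes. Chromosome 18 had shares near those of the X, with 52.6% higher and 32.7% lower. The X took 2.66 to 2.68% of the normalized counts in the day 0 libraries and 3.37 to 3.44% in the day 4 libraries, with no overlap. The X median was 0.29 in Mll1-KO, 0.39 in Mll2-KO and 0.36 in double-KO cells, and it was the highest median of any chromosome except in Mll2-KO cells, where chromosome 18 had 0.41. Of the single autosomes, chromosome 18 had the highest WT median, 0.32 over 388 genes, and chromosome 7 the lowest, -0.16 over 1166 genes. The noncoding RNA gene Xist, which coats the inactive X, had 7.66, 5.32 and 0 at day 0 and 24.4, 15.0 and 20.0 at day 4, and its antisense partner Tsix fell from 139.6 ± 22.1 to 35.1 ± 10.7. These genes overlap, so their reads cannot be told apart where counting ignored strand.

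Genes of cholesterol synthesis, which no comparison above describes, were mostly lower or not called: of 23 tested, 1 was higher and 13 lower at day 4, with a median log2 change of -0.27. Mvd and Idi1, enzymes of the mevalonate steps, fell from 597 ± 42.0 to 222 ± 9.56 and from 1615 ± 82.9 to 604 ± 17.7, and Sc5d rose from 409 ± 23.5 to 762 ± 16.8. Over the immediate early genes, of 11 tested, 7 were higher and 3 lower at day 4, with a median log2 change of 1.30, with Egr1 rising from 261 ± 52.6 to 942 ± 29.9 and Fos from 80.8 ± 21.5 to 196 ± 23.2. In all, 154 tested genes had no read in any WT day 0 library and some at day 4, and 45 showed the opposite.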
